A study of Homo sapiens with 18 samples.

Results

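The inner mitochondrial membrane carries 5 protein complexes that turn the oxidation of fuel into ATP. Complex I (NADH dehydrogenase) and complex II (succinate dehydrogenase) take electrons from NADH and succinate, complex III passes them to cytochrome c, complex IV (cytochrome c oxidase) hands them to oxygen, and complex V is the ATP synthase that the resulting proton gradient drives. A small core of these subunits is coded by mitochondrial DNA, and the remaining subunits, described here, are coded in the nucleus and imported. Members were all probes whose gene symbol marks a nuclear-coded subunit (NDUFA, NDUFB, NDUFC, NDUFS and NDUFV with a number, SDHA to SDHD, UQCR, COX4 to COX8, ATP5F1, ATP5M and ATP5P), kept where at least 3 of the 18 arrays gave a detection p-value under 0.01. The rule found 101 probes of 75 genes and kept 88 probes of 66 genes, out of 13336 kept probes and 48803 on the array. The kept probes divide into 33 for complex I (29 genes), 5 for complex II (3 genes), 11 for complex III (7 genes), 10 for complex IV (10 genes) and 29 for complex V (17 genes). ATP5F1EP2, counted with complex V, is annotated as a pseudogene close in sequence to ATP5F1E, and probe signal cannot be divided between such copies.

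All arrays hold RNA of KMS11, a human multiple myeloma cell line, which is a tumour of plasma cells. MMSET, whose gene symbol is NSD2, is a histone methyltransferase. The hairpin system carries a short hairpin RNA directed at its 5' part, which doxycycline induces: cells without the drug form the no DOX group and cells with it the +DOX group. In the second system, cells that the labels call MMSET knock-outs were infected with retrovirus: an empty vector (DSRed, the control), wild-type MMSET II, the F1177A mutant, which the labels call active, or the Y1118A mutant, which they call inactive. All 4 groups of that system therefore share the knock-out background. Each of the 6 groups has 3 arrays, called triplicates without mention of separate cultures. Their spread may therefore be technical, and a p-value speaks only for that spread. The number of arrays limits the precision, and clones, doses and times are not stated in the sources used here.

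Of the matching probes 13 were not kept, and each of these was detected on 0 arrays. They leave 9 genes without a kept probe: NDUFA5, NDUFB4, NDUFS6, COX4I2, COX6A2, COX6B2, COX7A1, COX7B2 and COX8C. The last 6 are isoforms of complex IV subunits known for restricted tissues such as lung, heart, skeletal muscle or testis, while the widely used partners COX4I1, COX6A1, COX6B1, COX7A2, COX7B and COX8A were detected on all 18 arrays. Of the kept probes, 82 were detected on all 18 arrays and 6 on fewer. The member just inside the limit was NDUFB1, detected on 3 arrays, and no member probe was detected on 1 or 2. By probe signal alone, which does not compare transcript amounts between genes, 66 member probes (75%) lay above the upper quartile of all kept probes.

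The 250 bases before the start of 5 members are shown because the values below turn on these genes: ATP5MC1, NDUFS3 and SDHA separated the MMSET II group from its control, and COX7B and ATP5PD separated +DOX from no DOX. The sequences are RefSeq's for build GRCh38.p14, at chr17:48892537-48892786 (+ strand) for ATP5MC1, chr11:47578824-47579073 (+) for NDUFS3, chr5:218070-218319 (+) for SDHA, chrX:77899218-77899467 (+) for COX7B and chr17:75046970-75047219 (- strand) for ATP5PD. Capitals mark the ETS core (CCGGAAG, bound by GABP and other ETS factors), found in NDUFS3 at -83 in gene orientation and at -102 on the other strand, and in ATP5PD at -101 on the other strand, counted from the annotated start. ATP5MC1, SDHA and COX7B hold no match in this window to that core, to the NRF1 core (GCATGCGC) or to the YY1 core (AAGATGG).
ATP5MC1: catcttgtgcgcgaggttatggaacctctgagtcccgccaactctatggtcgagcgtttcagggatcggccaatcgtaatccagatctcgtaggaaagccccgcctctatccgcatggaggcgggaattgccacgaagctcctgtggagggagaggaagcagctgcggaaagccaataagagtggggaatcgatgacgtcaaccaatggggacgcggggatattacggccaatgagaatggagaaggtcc
NDUFS3: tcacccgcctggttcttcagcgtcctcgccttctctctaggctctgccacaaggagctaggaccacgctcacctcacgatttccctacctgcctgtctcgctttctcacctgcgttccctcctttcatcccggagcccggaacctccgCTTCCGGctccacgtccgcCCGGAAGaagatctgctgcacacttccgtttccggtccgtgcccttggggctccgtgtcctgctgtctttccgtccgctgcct
SDHA: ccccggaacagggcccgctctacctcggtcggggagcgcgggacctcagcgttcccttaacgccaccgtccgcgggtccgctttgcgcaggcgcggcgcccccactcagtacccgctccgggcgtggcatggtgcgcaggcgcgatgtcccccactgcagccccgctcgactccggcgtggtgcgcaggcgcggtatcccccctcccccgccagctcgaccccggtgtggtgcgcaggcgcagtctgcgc
COX7B: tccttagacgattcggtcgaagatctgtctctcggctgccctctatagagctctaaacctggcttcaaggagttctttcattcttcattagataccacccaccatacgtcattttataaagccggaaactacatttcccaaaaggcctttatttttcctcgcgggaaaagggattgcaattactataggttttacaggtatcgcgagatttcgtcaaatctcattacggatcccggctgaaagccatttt
ATP5PD: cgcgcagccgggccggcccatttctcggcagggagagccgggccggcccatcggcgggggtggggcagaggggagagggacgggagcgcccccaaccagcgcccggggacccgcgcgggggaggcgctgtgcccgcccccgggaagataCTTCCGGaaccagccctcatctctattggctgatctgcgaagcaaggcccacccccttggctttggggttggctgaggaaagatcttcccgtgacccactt

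Promoter windows (250 bases before to 50 after a start) were held for 56 of the 66 genes. Searched on both strands, the NRF1 core was in a window of 9 of these genes (16.07%), against 4.892% of 15842 protein-coding genes with a window. The ETS core was in 20 (35.71%, against 16.53%) and the YY1 core in 15 (26.79%, against 7.897%). At least 1 of the 3 was in 35 genes (62.5%, against 25.89%). NRF1 and GABP are textbook activators of respiratory chain genes. A match is a description of letters and not a bound site.

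Array brightness differed between groups. The 95th percentile of the deposited intensity was lower in the no DOX group (241.5 to 349) than in +DOX (430 to 621), and in the repletion system it was 368 to 493 with F1177A against 622 to 889 with MMSET II and 746.5 to 775 with Y1118A. In the DSRed group replicate 3 stood apart, at 1033 against 491 and 453. The main counts that use this group are therefore also given without that array. The 1 NSD2 probe of 4 that was detected gave log2 values of 6.40, 6.64 and 6.65 with no DOX and 5.89, 5.95 and 5.83 with +DOX, a fall of 0.67 on the log2 scale (limma adjusted p = 0.00039). Against DSRed that probe differed by -0.03 (MMSET II), 0.11 (F1177A) and 0.13 (Y1118A), none called. The sources used here do not give the part of the transcript that it reads. Of 9 plasma cell and myeloma markers 8 were detected on at least 3 arrays and 6 on all. Of the 3 T cell markers 0 were detected on 3 arrays, of the monocyte, fibroblast and endothelial markers 1 of 3 each, and of the epithelial markers (EPCAM, KRT18, KRT19) 2 of 3. The summed epithelial intensity was 567 to 758 with no DOX, 934 to 1529 with +DOX, 10.2 to 34.4 with DSRed, 129 to 216 (MMSET II), 49.9 to 69.1 (F1177A) and 42.4 to 48.4 (Y1118A), and its part in the results was not tested. The arrays measure bulk RNA, in which fewer cells of a kind and less RNA per cell cannot be told apart.

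A probe was called higher or lower in a comparison when the adjusted p of the limma model (Benjamini-Hochberg over all 13336 kept probes) was under 0.05, and all values below are quantile-normalised log2 levels or log2 differences on that scale. With the hairpin on, 30 of 88 member probes were called higher and 5 lower, against 21.3% and 19.3% of all kept probes. With MMSET II against DSRed 10 were higher and 8 lower (16% and 15.5% of all). F1177A against DSRed gave 3 higher and 6 lower (10.7% and 9%), and with Y1118A against DSRed 15 were higher and 5 lower (14.1% and 12.1%). In shares of the members, these were 34.1% and 5.68%, 11.4% and 9.09%, 3.41% and 6.82%, and 17% and 5.68%. The members' rises with +DOX exceeded the share over all probes, and their falls were below it. Without no DOX replicate 1 the members called were 24 higher and 11 lower (27.3% and 12.5%, against 24% and 21.8% of all kept probes). In the MMSET II and F1177A comparisons both shares of the members lay below those of all probes. The MMSET II shares without DSRed replicate 3 were 20.5% and 13.6%, against 19.8% and 19% of all. Scaling each array to the median of all its probes, most of them not detected, moved the median difference of the kept probes to 0.48 with +DOX against no DOX. The repletion groups against DSRed moved to 0.20 (MMSET II), -0.42 (F1177A) and 0.20 (Y1118A). It moved that median to -0.00014 for MMSET II against Y1118A, and to -0.61 for F1177A against either other construct. On that scale the members called higher and lower were 68 and 0, 5 and 1, 0 and 14, and 1 and 1 in the same 4 comparisons. Between constructs they were 1 and 0 (MMSET II against Y1118A), 0 and 74 (F1177A against Y1118A) and 0 and 75 (F1177A against MMSET II). Scaled to the median of the kept probes they were 28 and 3, 12 and 8, 0 and 7, 10 and 7, 3 and 1, 13 and 21, and 11 and 23 in the same order. Of the 88 member probes, 1 called probe differed by at least 2-fold with +DOX (UQCRB), 1 with MMSET II (ATP5MC1) and 0 in the other 5 comparisons. Over all 13336 kept probes, called differences of that size numbered 530 with +DOX, 438 with MMSET II and 180 to 311 in the other 5.

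**Figure D1:**
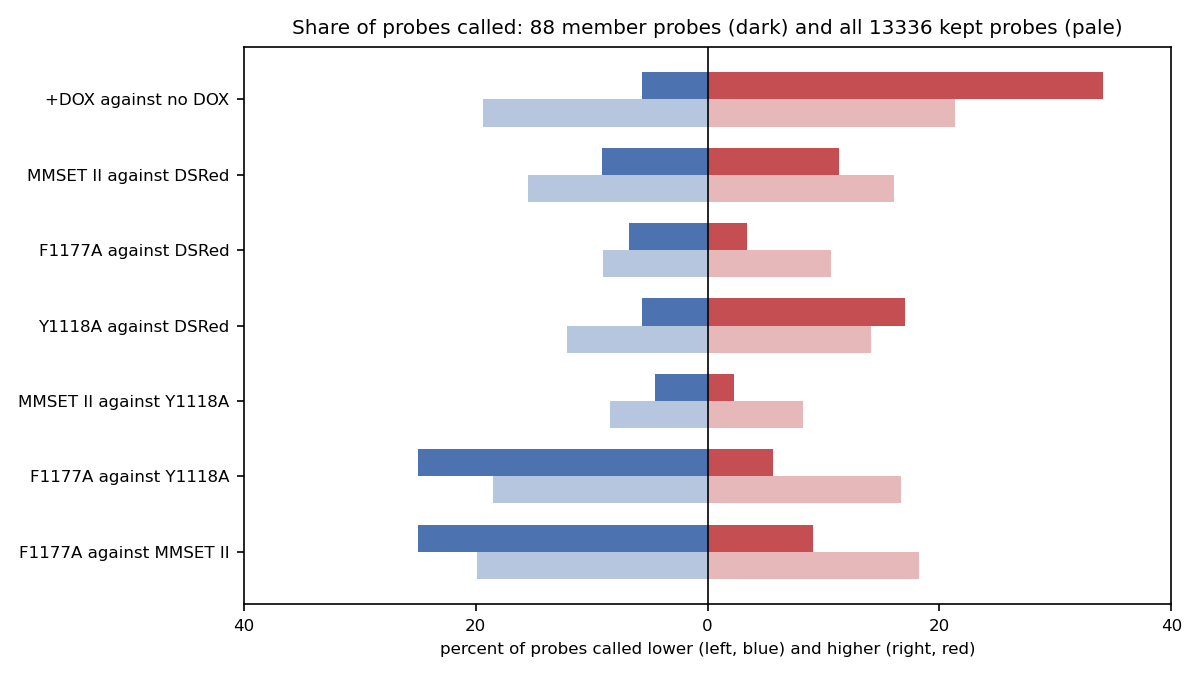
Percent of probes called lower (left, blue) and higher (right, red) in each of 7 comparisons, for the 88 member probes (dark bars) and all 13336 kept probes (pale bars). With +DOX 34.1% of members were called higher and 5.68% lower, while F1177A against Y1118A had 25% of members lower and 5.68% higher.

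With the hairpin on, some probes of each of the 5 complexes were called higher. Higher calls were made for 11 of 33 complex I probes, 2 of 5 of complex II, 5 of 11 of complex III, 3 of 10 of complex IV and 9 of 29 of complex V. These shares were 33.3%, 40%, 45.5%, 30% and 31%. Lower calls were made for 2 complex I and 3 complex V probes and 0 in complexes II, III and IV. Of all kept probes, 21.3% were higher and 19.3% lower. Without no DOX replicate 1, members called were 27.3% higher and 12.5% lower, against 24% and 21.8% of all kept probes. The dimmer SDHA probe was then called lower (-0.27, limma adjusted p = 0.048). The median difference was 0.13 over the 88 members and 0.02 over all kept probes, and by complex it was 0.13, 0.17, 0.21, 0.14 and 0.08 from I to V.

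The largest rise was that of UQCRB, a small subunit that complex III needs for its assembly. Its brighter probe read 8.13, 8.61 and 8.50 with no DOX and 9.38, 9.53 and 9.40 with +DOX. The groups did not overlap, and the difference was 1.02 ± 0.11 (SE, n = 3 against 3, limma adjusted p = 8.6e-07). The dimmer UQCRB probe rose by 0.34 (adjusted p = 0.040). UQCR10, another small complex III subunit, has 3 kept probes. The dimmest read 6.19, 6.45 and 6.41 with no DOX and 7.31, 7.16 and 7.09 with +DOX, a rise of 0.83, and the middle one rose by 0.53, while the brightest differed by 0.21 and was not called. The dimmer UQCRH probe rose by 0.59, while the brighter one differed by -0.20 and was not called. The core proteins UQCRC1 and UQCRC2 differed by 0.14 and -0.13, neither called.

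In complex IV, COX7B, a small nuclear-coded subunit, read 10.75, 10.73 and 10.60 with no DOX and 11.48, 11.48 and 11.31 with +DOX. All 3 induced arrays lay above all 3 controls, with a difference of 0.73 ± 0.14 (adjusted p = 0.00051). COX5A rose by 0.31 and COX7C by 0.24, and the other 7 subunits, COX4I1 among them (-0.12), were not called.

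In complex V, 9 probes of 7 genes rose. ATP5PD, subunit d of the peripheral stalk, read 11.79, 11.94 and 11.80 with no DOX and 12.45, 12.47 and 12.29 with +DOX, a rise of 0.56 ± 0.09 (adjusted p = 0.00013), and its other probe rose by 0.48. ATP5PO, the stalk's oligomycin sensitivity subunit, rose by 0.55, ATP5F1C (subunit gamma of the rotor) by 0.43 on 1 of its 2 probes, ATP5MF by 0.48 and 0.31, and ATP5PB by 0.26 on 1 of 2. The dimmer ATP5MG probe rose by 0.55, while the brighter one differed by -0.08 and was not called. The catalytic subunit ATP5F1B rose by 0.20, with arrays that overlap, and both ATP5F1A probes (0.17 and 0.09) were not called. ATP5MK, a small membrane subunit, fell: it read 7.78, 7.89 and 7.96 with no DOX and 7.35, 7.29 and 7.25 with +DOX, a difference of -0.58 (adjusted p = 0.00019), which became 0.050 on the scale of the median of all probes. The 2 ATP5MC2 probes fell by 0.51 and 0.18, and the dimmer was detected on 2 of the 3 +DOX arrays. The first of these calls was lost without no DOX replicate 1 (-0.51) or 3 (-0.41) or +DOX replicate 1 (-0.32), and the second without any array but +DOX replicate 3 (-0.14 to -0.19).

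In complex I the 2 probes of NDUFB3, an accessory subunit of the membrane arm, rose by 0.61 and 0.52. The brighter NDUFB3 probe read 11.03, 11.23 and 11.02 with no DOX and 11.55, 11.77 and 11.55 with +DOX. NDUFC1 rose by 0.50, NDUFV2, an iron-sulfur subunit of the NADH-binding arm, by 0.33, and NDUFS3, a core subunit of the peripheral arm, by 0.29. NDUFC2 was at least 1.48-fold lower with +DOX, where it was near background (adjusted p = 0.0066). NDUFB1 was called higher (adjusted p = 0.0034) but was near background in both groups, so no fold is given, and that call was lost with scaling on the median of the kept probes (0.054, adjusted p = 0.86). In complex II, SDHD, a membrane anchor of succinate dehydrogenase, read 8.06, 8.18 and 8.15 with no DOX and 9.05, 8.75 and 8.46 with +DOX, a rise of 0.63 (adjusted p = 0.0053). The dimmer SDHC probe rose by 0.35, and the brighter one differed by -0.20 and was not called.

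Brightness differed between these groups by 0.75 (log2 of the 95th percentile, +DOX minus no DOX), and its part in the rises was not tested beyond a fit with it as a covariate. In that fit 32 members were higher and 2 lower, UQCRB, COX7B and ATP5PD kept their calls, and SDHD (0.21, adjusted p = 0.26), SDHC (0.19, adjusted p = 0.23) and NDUFC2 (-0.22, adjusted p = 0.33) lost them. Without +DOX replicate 1 the count of members called was 22 instead of 35. Of the 35 calls, 18 were made in each of the 6 fits that leave out 1 array of these groups. NDUFV2 lost its call without any array but +DOX replicate 3 (0.28 to 0.35), COX5A without no DOX replicate 1 or 3 or +DOX replicate 1 or 2 (0.23 to 0.31), and ATP5F1B without no DOX replicate 1 or 3 or +DOX replicate 1 or 3 (0.15 to 0.21). The dimmer UQCRB probe lost it without no DOX replicate 2 or +DOX replicate 1 or 2 (0.26 to 0.31), ATP5PB without +DOX replicate 2 (0.23), and the ATP5MF probe that rose by 0.31 without no DOX replicate 1 (0.19). The dimmer SDHC probe also lost its call without no DOX replicate 2 (0.29), no DOX replicate 3 (0.31) or +DOX replicate 1 (0.31).

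**Figure D2:**
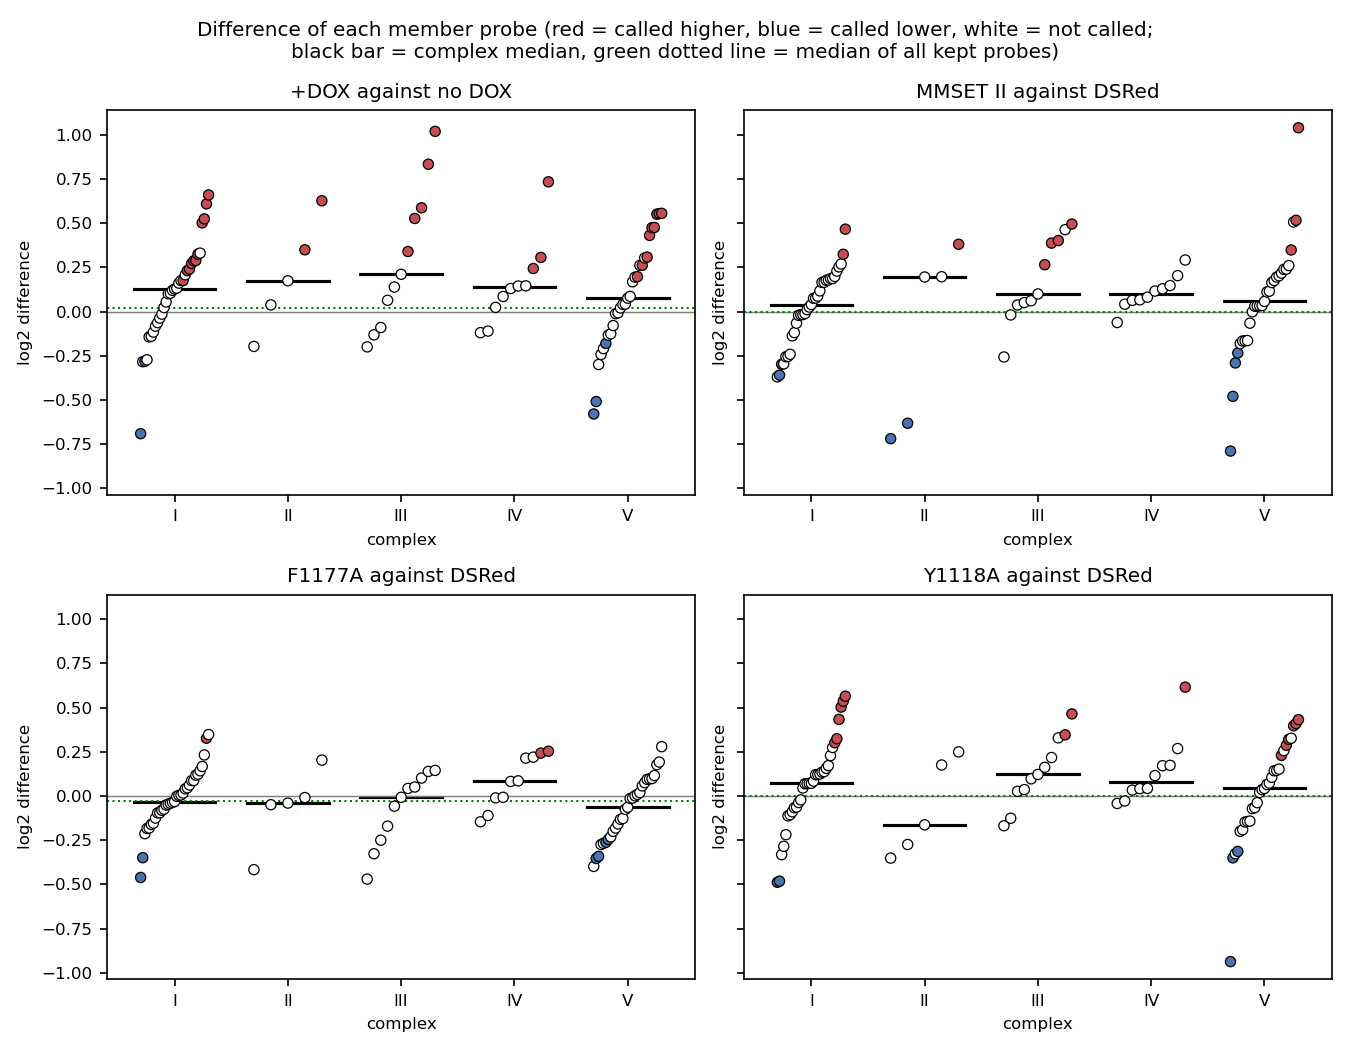
Log2 difference of each member probe by complex (I to V) in the 4 comparisons with a control; red points were called higher, blue lower and white not called, black bars are the complex medians and the green dotted line is the median of all 13336 kept probes. With +DOX the median lies above that of all probes in each complex, and with MMSET II the 10 complex IV probes are all white.

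With wild-type MMSET II restored, 18 members were called, 10 higher and 8 lower. Among them complex III had 4 higher and 0 lower of 11, complex V 3 higher and 4 lower of 29, complex I 2 and 2 of 33, complex II 1 and 2 of 5, and complex IV 0 of 10. These counts without DSRed replicate 3 were 3 and 0 (III), 7 and 5 (V), 5 and 5 (I), 2 and 2 (II), and 1 and 0 (IV). At an unadjusted p under 0.05 the complex IV count was 1 of 10 by limma. The median over members was 0.08, and that over all kept probes -0.005.

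The largest rise was in ATP5MC1, 1 of 3 genes (with ATP5MC2 and ATP5MC3) that code for the same mature c subunit of the membrane rotor behind different import sequences. Its dimmer probe read 6.80, 6.78 and 6.26 with DSRed and 7.48, 7.66 and 7.82 with MMSET II, a difference of 1.04 ± 0.15 (SE, adjusted p = 2.7e-05). Its brighter probe read 11.94, 11.93 and 11.47 with DSRed and 12.28, 12.23 and 12.39 with MMSET II, a difference of 0.52 (adjusted p = 0.00099). On both probes every MMSET II array lay above every DSRed array, and DSRed replicate 3 was the lowest. Without that array the differences were 0.86 and 0.36, both still called.

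ATP5MC2 moved the other way on both probes. The dimmer probe read 7.10, 6.96 and 6.31 with DSRed and 5.83, 6.15 and 6.03 with MMSET II, a fall of 0.79 on the log2 scale (adjusted p = 0.0032). The brighter one read 13.55, 13.61 and 13.64 against 13.39, 13.39 and 13.31, a fall of 0.23 (adjusted p = 0.012). The groups did not overlap on either probe, although the brighter one lost its call without MMSET II replicate 3 (-0.21, adjusted p = 0.053). ATP5MC3 was not analysed here. ATP5ME, subunit e, fell by 0.48 on its dimmer probe and differed by 0.03 on its brighter one, and ATP5MK fell by 0.29, a call lost without any array but DSRed replicate 3 (-0.23 to -0.31).

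SDHA, the flavoprotein of succinate dehydrogenase that holds its active site, had the largest fall outside complex V. Its brighter probe read 10.84, 10.69 and 10.51 with DSRed and 10.05, 10.07 and 10.03 with MMSET II, a fall of 0.63 (adjusted p = 0.0013). The dimmer probe read 10.43, 10.27 and 10.12 against 9.37, 9.71 and 9.58, a fall of 0.72 (adjusted p = 0.0031). The 3 MMSET II arrays were below every DSRed array on both probes. SDHC, a membrane anchor of the same complex, rose by 0.38 on its dimmer probe, a call lost without DSRed replicate 1 (0.28, adjusted p = 0.082), and its brighter probe differed by 0.20. SDHD, the other anchor, differed by 0.20 and was not called.

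In complex I, NDUFS3 read 10.37, 10.52 and 10.39 with DSRed and 10.89, 10.84 and 10.95 with MMSET II, a rise of 0.47 ± 0.08 (adjusted p = 0.00016). NDUFS5 rose by 0.32. NDUFB5 fell by 0.30 and the dimmer NDUFA10 probe by 0.36, but leaving out replicate 1 (-0.32) or 2 (-0.33) of DSRed, or replicate 1 (-0.28) or 3 (-0.36) of MMSET II, ended the call of NDUFA10. In complex III, the brighter UQCRB probe rose by 0.50, from 8.75, 8.81 and 8.98 to 9.32, 9.40 and 9.31. The dimmer UQCRB probe differed by -0.02 and was not called. Of the 3 UQCR10 probes 2 rose by 0.40 and 0.39, and the other differed by 0.05. Both UQCR10 calls were lost without DSRed replicate 2 or MMSET II replicate 1 or 3, and the first also without DSRed replicate 3 (0.33 to 0.42). UQCRQ rose by 0.27 and lost its call without any 1 of the 6 arrays (0.24 to 0.29), and NDUFS5 lost it without MMSET II replicate 2 (0.30). Of the 18 calls, 9 were made in each of the 6 fits. Without DSRed replicate 3 the members called were 30, of which 18 were higher and 12 lower. MMSET II arrays were brighter than DSRed by 0.30, which was not tested as a cause, and with brightness as a covariate 33 members were called, 25 higher and 8 lower. With array weights they were 26 higher and 15 lower.

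**Figure D3:**
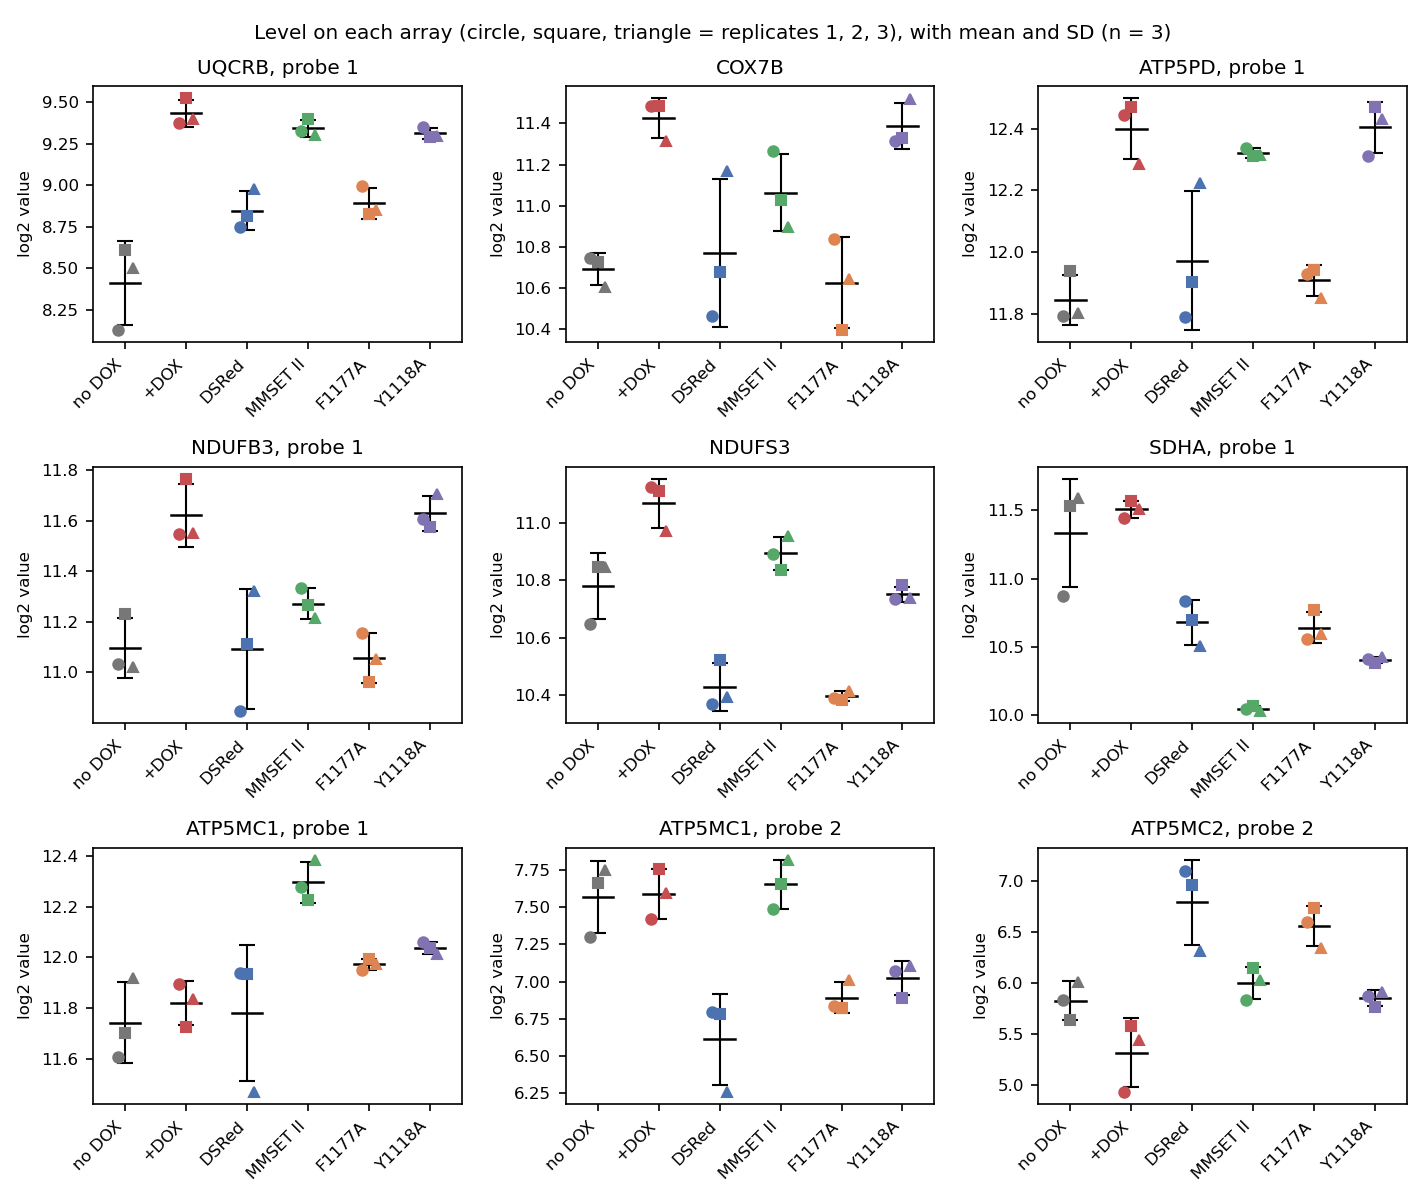
Log2 level of 9 member probes on each of the 18 arrays by group; circles, squares and triangles are replicates 1, 2 and 3, and black bars give the mean and SD (n = 3). ATP5MC1 is higher with MMSET II than with DSRed on both probes and SDHA is lower, while UQCRB, COX7B, ATP5PD and NDUFB3 are higher with +DOX than with no DOX.

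The F1177A mutant had 9 members called against DSRed, fewer than the 18 and 20 of the other constructs, whereas on the scale of the median of all probes it had 14 against 6 and 2. Over all kept probes F1177A also had the lowest shares called, 10.7% higher and 9% lower. Those shares were 16% and 15.5% with MMSET II, and 14.1% and 12.1% with Y1118A. NDUFV1, the NADH-binding flavoprotein of complex I, rose by 0.33, from 10.72, 10.72 and 10.59 to 10.96, 11.03 and 11.03 (adjusted p = 0.018). COX6C and COX4I1, subunits of complex IV, rose by 0.25 and 0.24. Scaled to the median of all probes, these 3 differences turned to -0.17, -0.17 and -0.19, against a median of -0.42 over all kept probes. The brighter probe of NDUFV3, an accessory subunit of the same arm as NDUFV1, read 6.75, 6.56 and 6.93 with DSRed and 6.31, 6.13 and 6.42 with F1177A, a fall of 0.46 (adjusted p = 0.019). The dimmer NDUFV3 probe, detected on 1 array of each group, went the other way and was not called. ATP5ME fell by 0.35 and 0.26 on its 2 probes, ATP5PB, subunit b of the peripheral stalk, by 0.34 and 0.25, and the brighter NDUFA10 probe by 0.35. SDHA differed by -0.05 and -0.04 and ATP5MC1 by 0.28 and 0.19, none called.

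None of these 9 calls was made in all 6 fits that leave out 1 array (0 of 9). Without DSRed replicate 3, 0 members were higher and 4 lower (0% and 4.55%, against 8.98% and 6.66% of all kept probes). The members called were 2 without F1177A replicate 2 and 3 without F1177A replicate 3. Leaving out any of these 3 arrays ended the calls of NDUFV1 (0.28 to 0.32), COX6C (0.20 to 0.24) and COX4I1 (0.16 to 0.24). NDUFV3 lost its call without DSRed replicate 3 (-0.37) or F1177A replicate 2 (-0.39), and NDUFA10 without DSRed replicate 2 (-0.28), F1177A replicate 2 (-0.33) or F1177A replicate 3 (-0.28). The dimmer ATP5ME probe lost it without DSRed replicate 2 (-0.31) and the brighter one without F1177A replicate 2 (-0.21). The larger ATP5PB fall lost it without F1177A replicate 3 (-0.28), and the smaller without any array but F1177A replicate 1 (-0.20 to -0.27). F1177A arrays were dimmer than DSRed by 0.58, and with brightness as a covariate 0 members were higher and 10 lower.

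The Y1118A mutant, labelled inactive, had 15 members higher and 5 lower than DSRed. COX7B read 10.46, 10.68 and 11.17 with DSRed and 11.31, 11.33 and 11.52 with Y1118A, a rise of 0.62 (adjusted p = 0.0039). The groups did not overlap, and DSRed replicate 3 was the highest control. NDUFB3 rose by 0.56 and 0.54 on its 2 probes. NDUFV2 rose by 0.50 with arrays that overlap, and NDUFS8, an iron-sulfur subunit of complex I, by 0.43. ATP5PD rose by 0.43 and 0.40, the brighter UQCRB probe by 0.46 and NDUFS3 by 0.32. The dimmer UQCRB probe differed by -0.17 and was not called. ATP5MF rose by 0.32 and 0.29 and UQCRQ by 0.35. Of the 20 calls, 9 were made in each of the 6 fits. NDUFV2 lost its call without DSRed replicate 2 (0.39), the ATP5PD probe at 0.40 without DSRed replicate 1 (0.30) and UQCRQ without Y1118A replicate 1 (0.30). Both ATP5MF calls were lost without DSRed replicate 1 or Y1118A replicate 3, and the smaller also without DSRed replicate 2 or Y1118A replicate 1 (0.23 to 0.31 over both).

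The largest fall was that of the dimmer ATP5MC2 probe, to 5.88, 5.77 and 5.92 from 7.10, 6.96 and 6.31 with DSRed, a difference of -0.94 ± 0.19 (SE, adjusted p = 0.0013). The brighter ATP5MC2 probe differed by -0.14 and was not called. NDUFA10, an accessory subunit of complex I, fell by 0.49 and 0.48 on its probes, the dimmer losing its call without Y1118A replicate 3 (-0.34, adjusted p = 0.085). ATP5MK fell by 0.35, a call lost without DSRed replicate 1 or 2 or Y1118A replicate 1 or 3 (-0.29 to -0.34). SDHA differed by -0.27 and -0.35, with adjusted p of 0.14 on both probes. Without DSRed replicate 3 there were 21 higher and 10 lower (23.9% and 11.4%, against 19.5% and 18.1% of all kept probes). Without DSRed replicate 1 the total of members was 13, and without Y1118A replicate 3 it was 12. Y1118A arrays were brighter than DSRed by 0.32, and its part in these calls was not tested beyond a fit with brightness as a covariate, in which 20 members were higher and 6 lower.

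Of the 3 pairs of constructs, wild-type MMSET II and the inactive mutant had the fewest calls, with 2 members higher and 4 lower of 88, against 8.27% and 8.44% of all kept probes, and with array brightness that differed by -0.02. ATP5MC1 was 0.63 higher with MMSET II on its dimmer probe, at 7.48, 7.66 and 7.82 against 7.07, 6.89 and 7.10 with Y1118A (adjusted p = 0.0061). Its brighter probe differed by 0.26 (adjusted p = 0.10). The dimmer probe of ATP5F1D, subunit delta of the rotor, was 0.65 higher, a call lost without MMSET II replicate 3 (0.53), Y1118A replicate 1 (0.60) or Y1118A replicate 2 (0.60). The brighter ATP5F1D probe differed by -0.10 and was not called. NDUFB3 was lower by -0.39 and -0.36, NDUFS8 by -0.36 and NDUFB5 by -0.34, all in complex I. The NDUFB3 call on its brighter probe was lost without replicate 2 (-0.35) or 3 (-0.33) of MMSET II, or replicate 1 (-0.37) or 3 (-0.32) of Y1118A. NDUFS8 lost its call without MMSET II replicate 3 or Y1118A replicate 3 (-0.30 to -0.31). Without MMSET II replicate 3 the total was 3.

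F1177A had more calls against each other construct than MMSET II had against Y1118A, among members and among all kept probes alike. Against Y1118A, F1177A had 5 members higher and 22 lower (5.68% and 25%, against 16.7% and 18.5% of all kept probes). Against MMSET II it had 8 higher and 22 lower (9.09% and 25%, against 18.2% and 19.9%). The members' medians were -0.09 in both, against -0.02 over all kept probes in both. The dimmer probe of UQCRH, the hinge protein of complex III, read 7.76, 7.32 and 7.54 with F1177A, 8.66, 8.55 and 8.21 with MMSET II and 8.10, 8.39 and 8.53 with Y1118A. Its difference was -0.93 from MMSET II and -0.80 from Y1118A, and the brighter UQCRH probe was not called in either. COX7B was lower by -0.76 and the dimmer NDUFB3 probe by -0.72 against Y1118A. ATP5PD was lower on both probes in both comparisons (-0.50 and -0.67 against Y1118A, -0.41 and -0.54 against MMSET II).

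SDHA was higher with F1177A than with MMSET II, at 10.56, 10.77 and 10.59 against 10.05, 10.07 and 10.03 on its brighter probe, a difference of 0.59 (adjusted p = 0.0021), and 0.67 on the dimmer one. Scaled to the median of all probes these turned to -0.19 and -0.13, against a median of -0.61. ATP5MC1 was lower by -0.76 and -0.32 against MMSET II, and the -0.32 of its brighter probe lost its call without MMSET II replicate 1 (-0.33) or 3 (-0.28) or without any F1177A replicate (-0.31 to -0.33). ATP5MC2 was higher on its dimmer probe by 0.71 against Y1118A and by 0.56 against MMSET II, the latter lost without MMSET II replicate 1 (0.47), F1177A replicate 1 (0.54) or F1177A replicate 2 (0.47). ATP5MG, subunit g, was higher than with Y1118A by 0.44 on its brighter probe, and that call was lost without F1177A replicate 2 or 3 or any Y1118A replicate (0.38 to 0.45). The dimmer ATP5MG probe differed by -0.36 and was not called. On the scale of the median of all probes the brighter ATP5MG probe turned to -0.13 and the dimmer ATP5MC2 probe against MMSET II to -0.031. Without MMSET II replicate 1 the count against MMSET II was 16 and without F1177A replicate 2 it was 17, in place of 30.

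F1177A arrays were dimmer than those of Y1118A by 0.89 and of MMSET II by 0.88. With brightness as a covariate the counts were 1 higher and 18 lower against Y1118A, and 1 higher and 25 lower against MMSET II. In that fit UQCRH lost both calls (-0.11 against Y1118A and -0.25 against MMSET II), as did COX7B (-0.31) and the dimmer ATP5MC2 probe (0.20) against Y1118A. SDHA lost its calls against MMSET II (0.33 and 0.35), as did the ATP5MC2 probe (0.06), while ATP5MC1 kept its call on the dimmer probe. Brightness and construct differ together here, and their parts cannot be told apart by these arrays alone.

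The hairpin system and the repletion system share no arrays. All arrays were normalised together and fitted in 1 model that shares each probe's variance, so the calls of the systems are not independent. Of the 30 probes higher with +DOX, 11 (36.7%) were also higher with Y1118A against DSRed, which is 73.3% of the 15 there. Over all kept probes 566 were higher in both, 19.9% of 2842 and 30.1% of 1879. Another count, 7 of the 30 (23.3%, and 70% of 10), were higher with MMSET II against DSRed: 2 UQCR10 probes and 1 each of NDUFS3, NDUFS5, SDHC, UQCRB and ATP5PD. Over all kept probes that overlap was 649 (22.8% of 2842 and 30.3% of 2140). Without DSRed replicate 3 the members' overlaps were 17 (56.7%, and 81% of 21) with Y1118A and 15 (50%, and 83.3% of 18) with MMSET II, against 912 (32.1% and 35%) and 959 (33.7% and 36.2%) of all kept probes. Of the 22 lower with F1177A than with Y1118A, 18 (81.8%, and 60% of the 30) were higher with +DOX, and of the 22 lower than with MMSET II 16 (72.7%, and 53.3% of the 30). Over all kept probes these overlaps were 1041 (42.1% of 2471, and 36.6% of 2842) and 1105 (41.7% of 2652, and 38.9% of 2842). In each of these comparisons the group with more higher calls was also the brighter one. The brightest DSRed array, replicate 3, read above the mean of replicates 1 and 2 on 32 of the 88 members and on 20 of the 30 that were higher with +DOX, where its median excess was 0.22. It did so on 19 of the 22 that were lower with F1177A than with Y1118A, with a median excess of 0.35. Over all kept probes it did so on 6654 of 13336. NDUFB5 was the 1 probe called in opposite directions with +DOX (0.18) and MMSET II (-0.30), and the first of these calls was lost when any array of its 2 groups except no DOX replicate 1 was left out (0.17 to 0.18).

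**Figure D4:**
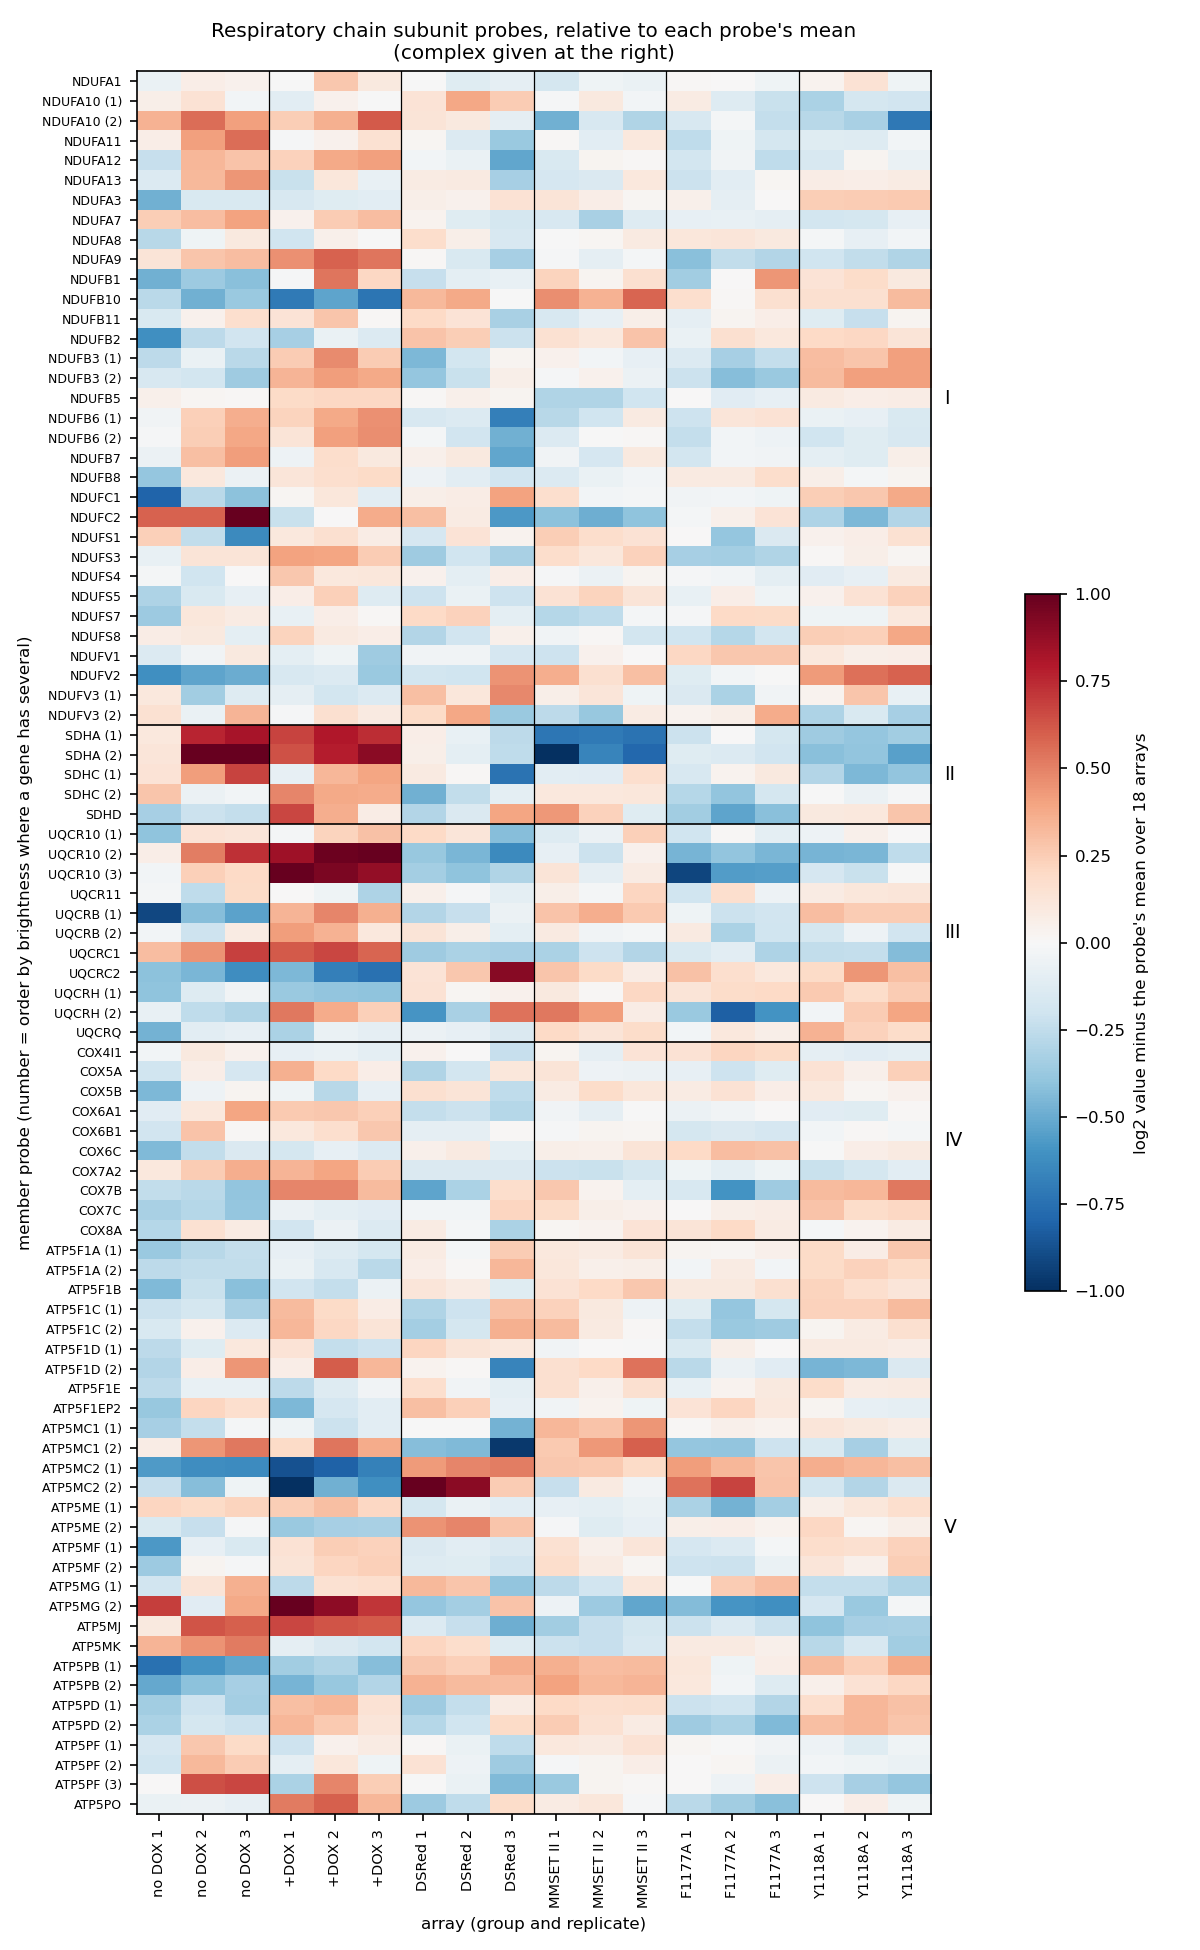
Log2 value of each of the 88 member probes minus its own mean over 18 arrays (colour, cut at -1 and 1), with arrays in columns by group and probes in rows by complex. SDHA is lowest in the 3 MMSET II columns, the dimmer ATP5MC2 probe is highest in DSRed and F1177A, and DSRed replicate 3 differs from replicates 1 and 2 on many rows.

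Probes of the same gene did not always move alike. More than 1 kept probe exists for 20 genes. With +DOX, all probes of a gene were called in the same direction for 5 of these genes, some for 6 and none for 9. With MMSET II the counts were 3, 6 and 11, and without DSRed replicate 3 they were 6, 8 and 6. The genes with all probes called alike over all arrays of that comparison were ATP5MC1, ATP5MC2 and SDHA. Opposite calls were made for 1 gene: with Y1118A the brighter ATP5ME probe rose by 0.23, a call lost without DSRed replicate 1 or Y1118A replicate 2 or 3 (0.20 to 0.23), while the dimmer one fell by 0.31. Such genes numbered 2 without DSRed replicate 3, ATP5ME and SDHC. The dimmer ATP5ME probe was also the 1 member probe called lower in all 3 comparisons with DSRed (-0.48, -0.35 and -0.31), and the last of these calls was lost without DSRed replicate 1 (-0.29) or 2 (-0.27) or Y1118A replicate 2 (-0.28) or 3 (-0.30). No member probe was higher in all 3.

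There were 33 member probes of 88, among them all kept probes of 24 genes, that were called in none of the 7 comparisons. The matching share of all kept probes is not given here, so this count does not set the members apart from other genes. Among them were NDUFA1, NDUFA7, NDUFA8, NDUFA11, NDUFA12 and NDUFA13 of complex I, UQCRC1, UQCRC2 and UQCR11 of complex III, COX5B, COX6A1, COX6B1, COX7A2 and COX8A of complex IV, and ATP5F1A, ATP5F1E and ATP5PF of complex V. ATP5PF, a coupling factor in the stalk, was called on 0 of its 3 probes. UQCRC2 read 9.17, 9.30 and 9.94 with DSRed, the last being the bright array, and 9.11 to 9.31 with MMSET II. A missed threshold does not show equal levels.

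Other genes of the pathway were counted over lists set by function, which were chosen with earlier results of these data known. For comparison, 21.3% of all kept probes were called higher and 19.3% lower with +DOX. With MMSET II against DSRed these shares were 16% and 15.5%, and with F1177A against MMSET II 18.2% and 19.9%. Against DSRed they were 10.7% and 9% for F1177A, and 14.1% and 12.1% for Y1118A. Assembly factors, which build the complexes, had 55 kept probes of 43 genes. With +DOX 14 of these were higher and 12 lower, and the extremes were TMEM70, which ATP synthase assembly needs (1.01), and SDHAF4, which serves succinate dehydrogenase (-1.02). Against MMSET II, F1177A had 4 of these higher and 16 lower. Mitochondrial import proteins and chaperones had 23 probes of 18 genes, of which 10 were higher and 2 lower with MMSET II against DSRed (8 and 2 without DSRed replicate 3). TOMM40, the channel of the outer membrane, rose by 0.68, TIMM10 by 0.63 and the chaperonin HSPD1 by 0.60. Against MMSET II, F1177A had 0 of these higher and 12 lower.

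Citric acid cycle and pyruvate dehydrogenase genes had 21 probes of 16 genes. With +DOX 6 were higher and 3 lower, and IDH2, a mitochondrial isocitrate dehydrogenase, fell by 1.22. With MMSET II against DSRed 4 were higher and 3 lower (6 and 6 without DSRed replicate 3), and IDH2 fell by 0.89. Regulators of mitochondrial genes had 17 probes of 15 genes, of which 2 were higher and 4 lower with +DOX, 1 and 4 for MMSET II, 1 and 4 for F1177A, and 0 and 5 for Y1118A, the last 3 against DSRed. Without DSRed replicate 3 those last 3 were 3 and 5, 1 and 1, and 1 and 5. ESRRA, a nuclear receptor that activates respiratory chain genes, fell by 0.51 with +DOX, by 0.39 with MMSET II and by 0.61 with Y1118A. Of the 7 subunits and carriers that the symbol rule leaves out, ATP5IF1, the inhibitor of the ATP synthase, rose by 0.91 with +DOX and cytochrome c (CYCS) by 0.49. The subunits coded by mitochondrial DNA were not analysed here. The genes named from these lists were chosen after their values were seen.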

How the data were processed

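Per the labels' protocols, biotin-labelled cRNA was made from total RNA of 18 KMS11 samples. It was read on Illumina bead arrays. The authors deposited a table that holds, per the file headers, a non-normalized probe intensity and a detection p-value for every probe and array. Because 31.1% of the deposited intensities are below 0, a background had been subtracted, in a way that the sources do not describe. The submitters' processing notes list GenomeStudio 1.5.4 and not what it did. A series matrix from the authors holds intensity values with 1 shared distribution (median 3), and served only as an alternative. Every one of the 54 columns of sample values entered the work.

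Probes were named from the platform annotation, which gives 1 symbol for 27578 probes, several for 13 and none for 21212. Intensities were background-corrected by normexp with parameters inferred from the detection p-values (offset 16), quantile-normalised over 18 arrays and put on the log2 scale with limma 3.58.1 in R 4.3.3. The offset makes log2 differences understate the change of dim probes. Probes with a detection p-value under 0.01 on at least 3 arrays were kept (13336). A group counts as near background where no array detects the probe, or where its mean is under the mean of the lowest signals detected on those arrays. Then only a bound, at least N-fold, is printed.

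Groups came from the labels alone. A single limma model held 1 coefficient per group over all 18 arrays (12 residual degrees of freedom), with moderated variances, an intensity trend, two-sided tests and Benjamini-Hochberg adjustment over all kept probes within each of 7 comparisons. The fit was tested on simulated data. Members are probes, and probes of a gene share its transcript, so they are not replicates. The labels give no slide or batch. Members named by rule were those with the largest called rise and fall per complex or comparison, and subunits with isoforms. The rule also named all succinate dehydrogenase subunits with a kept probe, the brightest and dimmest of each complex, and genes whose probes disagree. No probe matched SDHB. Other members, such as ATP5PO, NDUFC1, NDUFV2, NDUFS5, NDUFS8, UQCRQ, COX5A and COX7C, were named outside this rule, with their values known. The members, lists and rules were chosen with earlier results of these data known. Figures were drawn with matplotlib 3.10.9. Promoter sequences are RefSeq's (GRCh38.p14). Probe sequences and a genome were not used here.

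Alternatives were other offsets, scalings, filters, probe choices and model terms, the series matrix values, and leaving out each array. Replicate numbers are shared between groups. Correlations of same-numbered arrays' deviations ran from -0.595 to 0.347, so the numbers were not taken to pair arrays.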

Additional observations from a re-analysis of the deposited data

How the results depend on the processing

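Replacing 1 processing choice at a time moved the count of called members (higher and lower together) past 1.5 times as follows. For +DOX against no DOX the count of 35 became 68 with scaling on the median of all probes, 21 with no detection filter and 17 with the compared groups alone. For MMSET II against DSRed the count of 18 became 6 with median scaling, 10 with the brightest probe per gene (of 66), 41 with array weights (26 higher, 15 lower) and 33 with brightness as a covariate (25 higher, 8 lower). For F1177A against DSRed 9 became 14 with median scaling, 4 with no filter, 15 with array weights and 3 with the compared groups alone. For Y1118A against DSRed 20 became 2 with median scaling, 13 with the brightest probe per gene and 47 with array weights. For MMSET II against Y1118A 6 became 1 with median scaling, 3 with the brightest probe per gene, 26 with array weights, 13 with the covariate and 21 with the compared groups alone. For F1177A against Y1118A 27 became 74 with median scaling, 48 with array weights and 48 with the compared groups alone. For F1177A against MMSET II 30 became 75 with median scaling, 19 with no filter and 19 with the brightest probe per gene. Fewer probes enter the brightest-probe fit and fewer arrays the compared-groups fits. The cause of the moved counts was not tested for any setting. These counts are of members alone, and the matching shares of all kept probes are not given. Leaving out 1 array at a time gave 22 to 35, 13 to 30, 2 to 12, 12 to 31, 3 to 6, 18 to 23 and 16 to 25 calls in the order above.

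Of 55 differences named by rule and called, 9 stayed called under every setting run for their probe. They were UQCRB, COX7B and ATP5PD with +DOX, and NDUFS3, both ATP5MC1 probes and the dimmer ATP5MC2 probe with MMSET II against DSRed. The others were the dimmer ATP5MC2 probe with Y1118A against DSRed and the dimmer ATP5MC1 probe with F1177A against MMSET II. A fit that leaves out a probe does not count for it. The settings were 18 for the dimmer ATP5MC2 probe, 19 for the dimmer ATP5MC1 probe and 20 for the rest. A change of sign occurred for 25 values of named members, 21 of them under scaling on the median of all probes. With +DOX these were ATP5MK (0.050), SDHC (0.46), COX8A (0.43) and ATP5MC2 (0.34). With F1177A against DSRed they were NDUFV1 (-0.17), COX6C (-0.17) and COX4I1 (-0.19). Against Y1118A F1177A gave ATP5MG (-0.13), SDHA (-0.52), SDHC (-0.41), COX4I1 (-0.11), COX6A1 (-0.70), COX7A2 (-0.48) and COX8A (-0.43). Against MMSET II it gave SDHA (-0.13 and -0.19), SDHC (-0.78), COX6A1 (-0.78), COX7A2 (-0.50), COX8A (-0.50) and ATP5MC2 (-0.031). The brightness covariate turned ATP5MG against Y1118A (-0.18) and SDHC with +DOX (0.34) and with F1177A against MMSET II (-0.63). The dimmer SDHA probe with +DOX ran from -0.27 to 0.21 over the fits that leave out 1 array, lowest without no DOX replicate 1.

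The replicate block was fitted although same-numbered arrays share only a number. With the replicate block the counts were 30, 18, 8, 19, 6, 24 and 27 in the order above, none past 1.5 times the count without it. Signal near background limits NDUFB1 and NDUFC2.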
